A study of Zea mays with 40 samples.

Results

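The 150 genes described here had their highest expression in the maize kernel at 30 and 40 days after pollination (DAP) and lower expression before and after. They were chosen from the data. For each of the 35991 rows with a GRMZM gene name, FPKM (fragments mapped to a gene, scaled to its length and to the size of the library) was averaged over the 8 libraries of each DAP. Of these rows, 8817 had a mean of at least 5 FPKM at both 30 and 40 DAP, and 1233 of those had a score above 1. The score was the lower of the 30 and 40 DAP means plus 1, divided by the highest of the 10, 20, and 50 DAP means plus 1. The 150 genes with the highest score were kept, and all of them passed the filter on low values used in the tests. Scores ranged from 1.73 to 13.8 with a median of 2.25.

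Kernels were sampled from 4 maize inbred lines every 10 days between 10 and 50 DAP, and the seeds in the middle of each of 2 ears gave 2 biological repeats, so that 40 libraries formed 20 groups of line and DAP. The labels name the lines T191, T147, T209, and T210. T191 and T147 carry the numbers of the inbred lines YZU191 and YZU147. A heat map in the study, however, appears to show under each of these names the profiles of the libraries labelled with the opposite number. This was read by eye from its colours and was not tested. Which inbred line stands behind T191 and which behind T147 was therefore not settled here. By elimination T209 and T210 would be DH1M and T877, the parents of a recombinant inbred population, but the labels do not say so or which is which. No treatment was applied, each RNA came from whole kernels, and each direction below is a direction between libraries that carry these labels.

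A maize kernel holds a triploid endosperm, which stores starch and zein proteins, and a diploid embryo, which stores oil and globulins, inside a maternal pericarp. Starch synthesis runs through the filling phase and declines as the endosperm cells die, and the embryo then gains desiccation tolerance as the seed dries. Kernels also accumulate proteins that inhibit digestive enzymes of insects or break fungal cell walls, such as protease inhibitors, chitinases, and pathogenesis-related (PR) proteins.

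FPKM totals per library lay between 544588 and 683241, and relative depth, read from the steps of low FPKM values, was 0.612 to 2.30 times that of the median library. Spearman's rho between the ears of a group over the rows was 0.844 to 0.950. As a check of the tissue, 10 rows of endosperm markers summed to between 2663 and 11943 FPKM at 10 DAP and between 14.5 and 46.2 FPKM at 40 DAP, whereas 7 rows of embryo markers summed to between 23543 and 56147 FPKM at 40 DAP. Markers of pericarp and green tissue reached at most 0.466 FPKM in sum at 40 DAP. Ear 2 of T191 at 20 DAP stood apart, with 1.25% of its FPKM in the 150 genes against 0.244% in ear 1, and with 7485 FPKM for the embryo markers against 25037 FPKM in ear 1. Without this library, 126 of the 150 genes would still have been chosen.

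RefSeq gene entries matched 103 of the 150 genes, and 20 of these carried another name. The other 47 were left with their GRMZM identifiers. Rows of 4 pairs had identical values in every library, among them GRMZM2G032104 and GRMZM2G399700, which belong to 1 RefSeq gene, so that 146 distinct profiles were measured. The lowest-ranked gene kept, GRMZM2G076017, had means of 8.95, 7.34, 18.7, 18.0, and 10.0 FPKM from the youngest to the oldest kernels and a score of 1.73. GRMZM2G076075 had the same values and was the first gene left out. Inside the threshold, GRMZM2G409104 had 274 and 129 FPKM at 30 and 40 DAP with a score of 1.74, and GRMZM2G123876 had 11.6 and 10.6 FPKM with a score of 1.73. Outside it, GRMZM2G085176 and GRMZM2G085266 shared values of 8.09 and 30.6 FPKM at these times.

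The profile over DAP is what chose the genes and is given without a test. Over the 150 genes, the median of the mean FPKM was 2.03 at 10 DAP, 4.45 at 20 DAP, 18.9 at 30 DAP, 25.9 at 40 DAP, and 3.40 at 50 DAP. The mean was higher at 40 DAP for 106 genes and at 30 DAP for 44. Outside the window, 70 genes were next highest at 50 DAP, 60 at 20 DAP, and 20 at 10 DAP. The genes took a median of 0.144% of all FPKM at 10 DAP, 1.42% at 30 DAP, 1.94% at 40 DAP, and 0.312% at 50 DAP. GRMZM2G075315 had the highest 40 DAP mean of the genes, with 5546 FPKM against 851 FPKM at 30 DAP, and reached 13910 and 17159 FPKM in the T147 ears at 40 DAP.

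GRMZM2G028306 had the highest score, 13.8, with means of 1.82, 6.41, 101, 239, and 4.35 FPKM from 10 to 50 DAP. GRMZM2G075283 followed with a score of 9.38 and means of 158 FPKM at 30 DAP and 718 FPKM at 40 DAP. GRMZM2G093092 had a score of 9.01 and means of at most 0.246 FPKM outside the window, against 10.2 FPKM at 30 DAP and 54.9 FPKM at 40 DAP. All of them were low in the youngest kernels and again in the oldest. The next 12 scores, between 4.73 and 7.93, belonged to GRMZM2G169261, GRMZM2G306105, GRMZM2G136372, GRMZM2G137535, GRMZM2G006853, GRMZM2G169240, GRMZM2G117942, GRMZM2G181227, wip1 (GRMZM2G156632), PR-5 (GRMZM2G402631), GRMZM2G117971, and GRMZM2G112488. A few of the genes lay close together in the RefSeq gene order. GRMZM2G006853 and PR-5 had 2 genes between them, GRMZM2G169261 and GRMZM2G106177 had 0, GRMZM2G325683 and GRMZM2G325693 had 0, and GRMZM2G106177 and GRMZM2G181227 had 3.

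The genes differed in which side of the window was higher. The ratio of the 30 to the 40 DAP mean had quartiles of 0.446 and 1.04. The lowest ratios, starting at 0.0957, were those of GRMZM2G116520 with 93.1 FPKM at 30 DAP and 973 FPKM at 40 DAP, GRMZM2G136372 with 19.3 and 135 FPKM, and PR-5 with 111 and 769 FPKM. The highest ratios, up to 2.12, were those of GRMZM2G409104, GRMZM2G400965 with 19.0 and 9.33 FPKM, and GRMZM2G364528 with 22.1 and 11.02 FPKM. No gene had its highest mean outside the window in more than 1 line. In all 4 lines 141 genes were highest at 30 or 40 DAP, and in 3 of the 4 lines 9 genes were.

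Within the window, the lines differed in timing. In T191 the 2-ear mean was highest at 30 DAP for 117 genes and at 40 DAP for 30, whereas in T147 it was highest at 40 DAP for 142 genes and at 30 DAP for 8. In T209 it was highest at 30 DAP for 127 genes and at 40 DAP for 21, whereas in T210 it was highest at 40 DAP for 106 genes and at 30 DAP for 40. Of the 150 genes, 76 were highest at 30 DAP in T191 and T209 and at 40 DAP in T147 and T210. For these 76 genes the mean over all lines, from which the genes were chosen, joins a 30 DAP peak in T191 and T209 with a 40 DAP peak in T147 and T210. Lines with different peak days were joined for more genes than these. Highest at 40 DAP in T147 and at 30 DAP in T209 were 121 genes, and at 40 DAP in T147 and at 30 DAP in T191 110 genes.

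**Figure D1:**
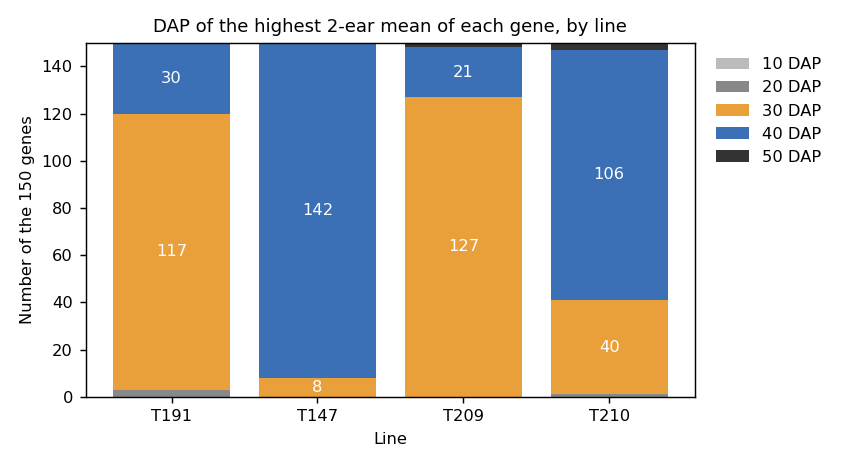
Number of the 150 genes (vertical axis) whose mean of 2 ears was highest at each DAP, as stacked bars for the lines T191, T147, T209, and T210 (horizontal axis). Most genes were highest at 30 DAP in T191 (117) and T209 (127) and at 40 DAP in T147 (142) and T210 (106).

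Median levels followed the same order. The median gene in T191 had 21.5 FPKM at 30 DAP and 12.0 FPKM at 40 DAP, and in T147 it had 6.43 FPKM at 30 DAP and 44.5 FPKM at 40 DAP. The median gene in T209 had 21.8 FPKM at 30 DAP and 9.60 FPKM at 40 DAP, and in T210 it had 14.2 FPKM at 30 DAP and 22.9 FPKM at 40 DAP. Both ears at 40 DAP were above both ears at 30 DAP for 11 genes in T191, 124 in T147, 8 in T209, and 54 in T210. Over all 43394 rows tested, the share with both ears above was 22.5% in T191, 27.3% in T147, 27.0% in T209, and 18.3% in T210. Both were below for 86 genes in T191, 2 in T147, 90 in T209, and 16 in T210, against 23.5%, 31.5%, 21.1%, and 34.9% of all rows in the same order. Of the 8817 genes with at least 5 FPKM at 30 and 40 DAP, from which the 150 were chosen, 56.5% had the higher mean at 40 DAP in T191, 56.4% in T147, 62.8% in T209, and 44.2% in T210.

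T147 at 40 DAP held the highest values. In 95 of the 150 genes the largest of all 40 libraries was an ear of T147 at 40 DAP, and the genes took 7.45% and 8.79% of the FPKM of these ears, against 0.975% and 2.08% in the T191 ears of that time. The rule thus drew on these 2 libraries: without both ears of T147 at 40 DAP it kept 109 of the 150 genes. It kept 92 without line T147, but leaving out any other line also changed the set. The same rule kept 109 without T191, 114 without T209, and 118 without T210. The largest library lay outside the window for only 1 gene, GRMZM2G419675, in ear 2 of T191 at 20 DAP. Within a line, the peak (the higher of the 30 and 40 DAP means over the highest other mean) had a median of 1.29 on the log2 scale in T191, 2.80 in T147, 1.84 in T209, and 1.43 in T210. This measure is close to the score that chose the genes. In T191 at 20 DAP the median gene had 9.29 FPKM in ear 2, the library that stood apart, and 3.08 FPKM in ear 1. The part of that ear in the T191 value was not tested.

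**Figure D2:**
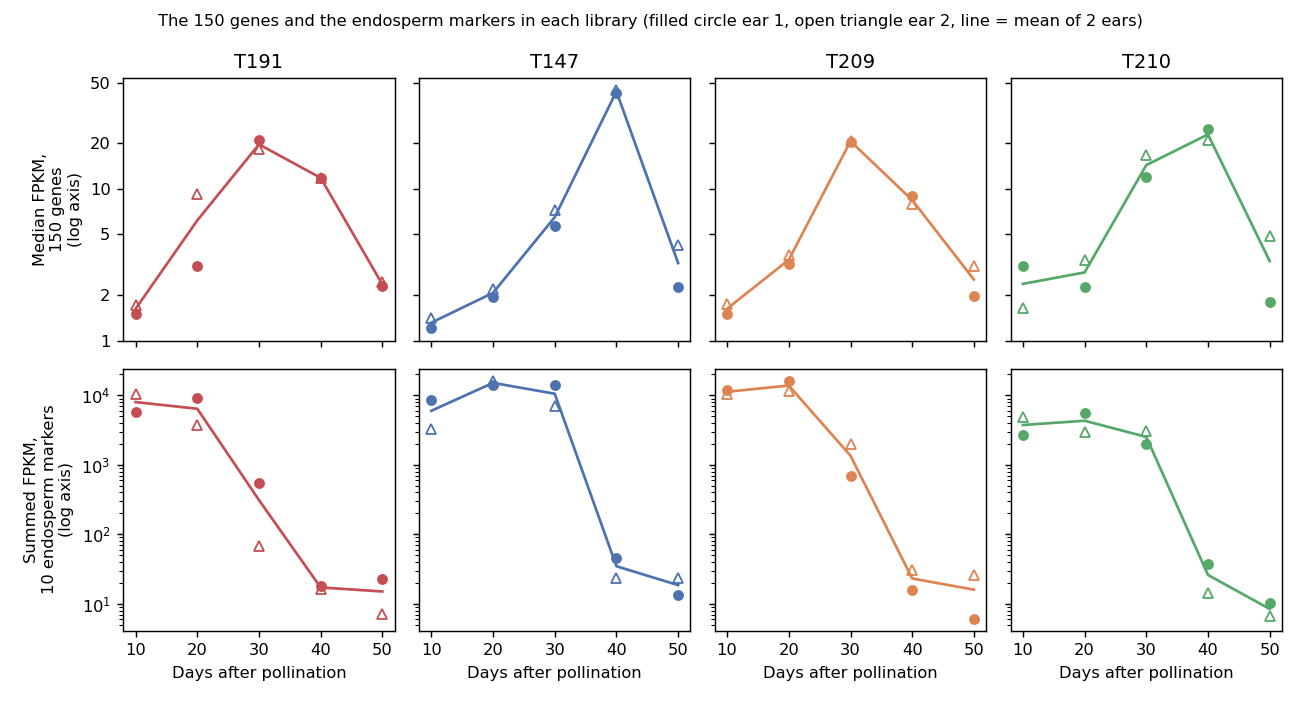
Upper panels show the median FPKM of the 150 genes and lower panels the summed FPKM of 10 endosperm marker rows in each library, both on log axes, against DAP for T191, T147, T209, and T210 (filled circles ear 1, open triangles ear 2, lines the mean of the ears). The genes were highest at 40 DAP in both T147 ears, and the endosperm markers at 30 DAP were 14037 and 7053 FPKM in T147, against 554 and 68.9 FPKM in T191.

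The difference in timing was tested as a line-by-stage interaction. The rule averaged over lines, but it drew on the same libraries and most of all on line T147. The counts below are therefore not independent of the rule, and counts for genes chosen without the lines compared are given after them. The step from 30 to 40 DAP was taken as the difference of log2(FPKM + 1) between these times, and the steps of a pair of lines were compared with limma over 43394 rows, with Benjamini-Hochberg adjustment across these rows. The step was lower in T191 than in T147 for 86 of the 150 genes and higher for 0 (limma, adjusted p under 0.05). Over all rows tested 6.17% differed, 3.32% being lower and 2.85% higher. Of the 8667 genes with at least 5 FPKM at 30 and 40 DAP that were not chosen, 3.06% were lower. At an unadjusted p under 0.05, limma called 115 of the genes lower and again 0 higher. The median difference over the 150 genes was -3.30 on the log2 scale and all but 3 differences were below 0, against a median of 0.03 over all rows.

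Between T209 and T210, the step was lower in T209 for 32 genes and higher for 0 (limma, adjusted p under 0.05), where 4.25% of all rows differed, 1.71% being lower and 2.54% higher, and 1.49% of the 8667 genes not chosen were lower. With unadjusted p-values limma called 65 genes lower and 1 higher. The median difference was -1.64 on the log2 scale, 127 differences were below 0, and the median over all rows was 0.20. Of the 32 genes, 31 were also among the 86 of the other pair of lines, which is 96.9% of the smaller set and 36.05% of the larger one. The count of 32 was 19 without ear 1 of T210 at 40 DAP, 20 without ear 2 of T209 at 40 DAP, and 20 without ear 1 of T210 at 30 DAP.

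**Figure D3:**
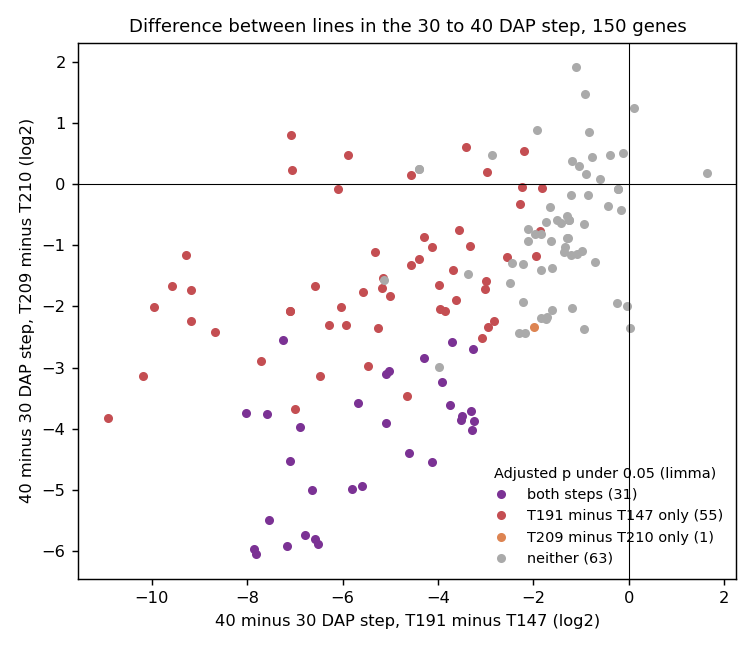
Difference in the step from 30 to 40 DAP on the log2(FPKM + 1) scale, T191 minus T147 on the horizontal axis and T209 minus T210 on the vertical axis, 1 point for each of the 150 genes, coloured by which differences had an adjusted p under 0.05 (limma). Most points lie below 0 on both axes (126 genes), and 31 genes passed the threshold for both.

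To keep the choice of genes apart from the lines compared, the same rule was also applied to the libraries of the other pair of lines only, an alternative added after the data were seen. Of the 150 genes chosen in T209 and T210 alone, 94 were among the genes above. The step from 30 to 40 DAP was lower in T191 than in T147 for 72 of them and higher for 2, with a median difference of -2.38. Of 150 genes chosen in T191 and T147 alone, 101 were among the genes above. The step was lower in T209 than in T210 for 24 and higher for 0, with a median of -1.31.

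The endosperm markers also differed between the lines. At 30 DAP they summed to 554 and 68.9 FPKM in T191, 14037 and 7053 FPKM in T147, 698 and 2007 FPKM in T209, and 2019 and 3028 FPKM in T210. All 10 rows together were at most 46.2 FPKM in every line at 40 DAP. Embryo markers at 40 DAP summed to 54452 and 56147 FPKM in T191, against 23543 and 32528 FPKM in T147. In the other pair the ears overlapped, with 48182 and 34157 FPKM in T209 and 40642 and 54728 FPKM in T210. None of the 150 genes is a marker in these lists. The part of these marker levels in the step of the 150 genes was not tested, and in whole kernels fewer cells of a type and less RNA per cell cannot be told apart.

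The largest difference between the steps of T191 and T147 was that of GRMZM2G028306, the gene with the highest score. It had 227 and 101 FPKM in the T191 ears at 30 DAP and 5.396 and 32.7 FPKM at 40 DAP, against 1.52 and 5.92 FPKM in the T147 ears at 30 DAP and 525 and 1140 FPKM at 40 DAP. The lines thus changed places between the times with no overlap at either. The difference was -10.91 (standard error 1.40) on the log2 scale (limma adjusted p = 1.76e-05). GRMZM2G117942 had 593 and 86.3 FPKM in T191 at 30 DAP and 14.2 and 115 FPKM at 40 DAP, against 2.33 and 12.5 FPKM in T147 at 30 DAP and 1110 and 1869 FPKM at 40 DAP. GRMZM2G117971 had 781 and 131 FPKM in T191 at 30 DAP and 82.5 and 340 FPKM at 40 DAP, against 2.87 and 10.6 FPKM in T147 at 30 DAP and 2571 and 4717 FPKM at 40 DAP. These genes showed the same exchange, and their differences were -10.19 and -9.95 (limma adjusted p = 1.76e-05 and 2.93e-05).

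Other genes had the largest differences between the steps of T209 and T210. GRMZM2G422631 had 9.91 and 10.0 FPKM in T209 at 30 DAP and was listed at 0 in both ears at 40 DAP, against 5.34 and 3.48 FPKM in T210 at 30 DAP and 30.8 and 27.8 FPKM at 40 DAP. In T191 it had 6.76 and 5.23 FPKM at 30 DAP and at most 0.0841 FPKM at 40 DAP, whereas in T147 it was listed at 0 at 30 DAP and had 33.8 and 34.2 FPKM at 40 DAP. It was thus at or near 0 at 40 DAP in T191 and T209, listed at 0 at 30 DAP in T147, and well above 0 at both times in T210. The difference between the steps of T209 and T210 was -5.96 (standard error 0.58, limma adjusted p = 8.37e-07).

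GRMZM2G074781 had 19.0 and 59.6 FPKM in T209 at 30 DAP and 1.36 and 0.540 FPKM at 40 DAP, against 2.96 and 5.41 FPKM in T210 at 30 DAP and 22.3 and 10.7 FPKM at 40 DAP. Its difference was -5.91 (limma adjusted p = 0.000348). GRMZM2G078667 had 163 and 92.2 FPKM in T209 at 30 DAP and 5.69 and 1.25 FPKM at 40 DAP, against 16.9 and 41.6 FPKM in T210 at 30 DAP and 79.8 and 39.9 FPKM at 40 DAP. These genes did not overlap between T209 and T210 at either time. For GRMZM2G078667 the difference of -6.05 had a limma adjusted p of 0.0142, which was 0.0590 without ear 1 of T209 at 30 DAP, 0.0781 without ear 2 of T209 at 40 DAP, 0.0699 without ear 1 of T210 at 30 DAP, and 0.0644 without ear 1 of T210 at 40 DAP.

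Genes with a known product were read from their RefSeq names and were chosen for naming after their values had been seen. Of the 20 genes with another name, 10 had a lower step in T191 than in T147 and 5 a lower step in T209 than in T210 (limma, adjusted p under 0.05). Of the 150 genes 57.3% and 21.3% did, and of all rows 3.32% and 1.71%. The named genes were thus close to the whole set from which they come. Defence proteins were 6 of the 20. They were wip1, a wound-induced protease inhibitor of the Bowman-Birk type, cystatin II (GRMZM2G012160), an inhibitor of cysteine proteases, PR-5, a thaumatin-like protein, PR-1 (GRMZM2G465226), and the chitinases chn1 (GRMZM2G453805) and chiI (GRMZM2G145461).

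PR-5 had 181 and 52.2 FPKM in T191 at 30 DAP and 101 and 968 FPKM at 40 DAP, against 1.04 and 7.30 FPKM in T147 at 30 DAP and 1757 and 1788 FPKM at 40 DAP. PR-1 had 233 and 7.80 FPKM in T191 at 30 DAP and 19.0 and 61.5 FPKM at 40 DAP, against 0.573 and 0.176 FPKM in T147 at 30 DAP and 392 and 1658 FPKM at 40 DAP. In T147 both PR genes were low at 30 DAP and above every T191 ear at 40 DAP. The difference in the step was -7.07 for PR-5 (standard error 1.81, limma adjusted p = 0.0173) and -9.57 for PR-1 (standard error 1.63, limma adjusted p = 0.000488). That of PR-5 no longer passed without ear 1 of T147 at 30 DAP (adjusted p = 0.114), of T147 at 40 DAP (0.0570), of T191 at 30 DAP (0.0685), or of T191 at 40 DAP (0.131). Ear 2 of T147 at 40 DAP alone held 65.7% of the FPKM of PR-1 summed over the 30 and 40 DAP libraries.

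Among the inhibitors, cystatin II had 253 and 142 FPKM in T191 at 30 DAP and 118 and 91.7 FPKM at 40 DAP, against 68.6 and 87.7 FPKM in T147 at 30 DAP and 1291 and 1489 FPKM at 40 DAP. The wip1 gene had 71.5 and 26.2 FPKM in T191 at 30 DAP and 15.7 and 12.0 FPKM at 40 DAP, against 2.73 and 4.61 FPKM in T147 at 30 DAP and 403 and 195 FPKM at 40 DAP. Both were lower at 40 DAP in T191 and higher at 40 DAP in T147. Differences in the step were -5.00 for cystatin II (standard error 0.80, limma adjusted p = 0.000235) and -7.54 for wip1 (standard error 1.44, limma adjusted p = 0.00157).

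In the other pair of lines, wip1 had 430 and 193 FPKM in T209 at 30 DAP and 58.1 and 18.2 FPKM at 40 DAP, against 19.2 and 36.2 FPKM in T210 at 30 DAP and 197 and 102 FPKM at 40 DAP. The groups did not overlap at either time. This step differed by -5.48 (standard error 1.44, limma adjusted p = 0.0289), which no longer passed without ear 1 of T209 at 30 DAP (adjusted p = 0.116), ear 2 of T209 at 40 DAP (0.134), ear 1 (0.105) or ear 2 (0.0555) of T210 at 30 DAP, or ear 1 of T210 at 40 DAP (0.109). Cystatin II had 255 and 134 FPKM in T209 at 30 DAP and 62.7 and 42.4 FPKM at 40 DAP, against 233 and 302 FPKM in T210 at 30 DAP and 258 and 274 FPKM at 40 DAP. Its step differed by -1.83 (limma adjusted p = 0.209), but its level over both times was lower in T209, with a difference of -1.43 on the log2 scale (limma adjusted p = 0.00766).

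Of the chitinases, chn1 had 153 and 52.2 FPKM in T191 at 30 DAP and 87.2 and 154 FPKM at 40 DAP, against 1.64 and 7.15 FPKM in T147 at 30 DAP and 581 and 1144 FPKM at 40 DAP. The T191 ears overlapped between the times and those of T147 did not, and the steps differed by -7.09 (standard error 1.14, limma adjusted p = 0.000258). In T209 chn1 had 56.8 and 58.6 FPKM at 30 DAP and 38.03 and 12.3 FPKM at 40 DAP, against 20.7 and 70.5 FPKM in T210 at 30 DAP and 645 and 190.5 FPKM at 40 DAP. That difference was -4.53 (limma adjusted p = 0.0230). It did not pass without ear 1 of T209 at 30 DAP (0.0618), ear 2 of T209 at 40 DAP (0.124), or ear 1 of T210 at 30 DAP (0.124) or at 40 DAP (0.126). The other chitinase, chiI, had 27.3 and 50.7 FPKM in T191 at 40 DAP, against 408 and 429 FPKM in T147, and its step difference of -5.13 did not pass (limma adjusted p = 0.0747).

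For comparison, 12 genes with RefSeq names of defence proteins, a list made after the values were seen, included the 6 above and 6 that were not among the 150 genes. In all, 11 of the 12 had their highest mean at 30 or 40 DAP. For the 6 among the 150 genes this was set by the rule that chose them, and no share over all rows was taken. Of the 12 genes, 7 had a lower step in T191 than in T147 and 0 a higher one, with a median difference of -4.59, where 3.32% of all rows were lower. Of these 7, 5 were among the 150 genes. The others were PR10 (GRMZM2G112524) at -4.17 (limma adjusted p = 0.0422) and pr6 (GRMZM2G065585) at -3.49 (0.0458). The call of PR10 did not pass without any 1 of the 8 libraries compared (0.0523 to 0.185). That of pr6 came from 1 ear of each line, ear 1 of T191 at 30 DAP with 15.9 FPKM and ear 2 of T147 at 40 DAP with 6.68 FPKM, while the other libraries of these groups had at most 0.0362 FPKM. It passed only without ear 2 of T191 at 30 DAP or ear 1 of T147 at 40 DAP, and had adjusted p-values of 0.0898 to 0.277 without any 1 of the other 6 libraries. The chitinases chiA and chiB, the maize protease inhibitor MPI, and prp2 had differences between -1.25 and 1.25 that did not pass. Only prp2 was not highest at 30 or 40 DAP, and its mean fell from 367 FPKM at 10 DAP to 3.29 FPKM at 50 DAP. Scores were 1.61 for PR10 and 1.42 for chiA, but 0.886 for MPI and 0.622 for chiB. The means of pr6 were only 2.12 FPKM at 30 DAP and 0.839 FPKM at 40 DAP. In T209 against T210, 2 of the 12 passed, wip1 and chn1.

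**Figure D4:**
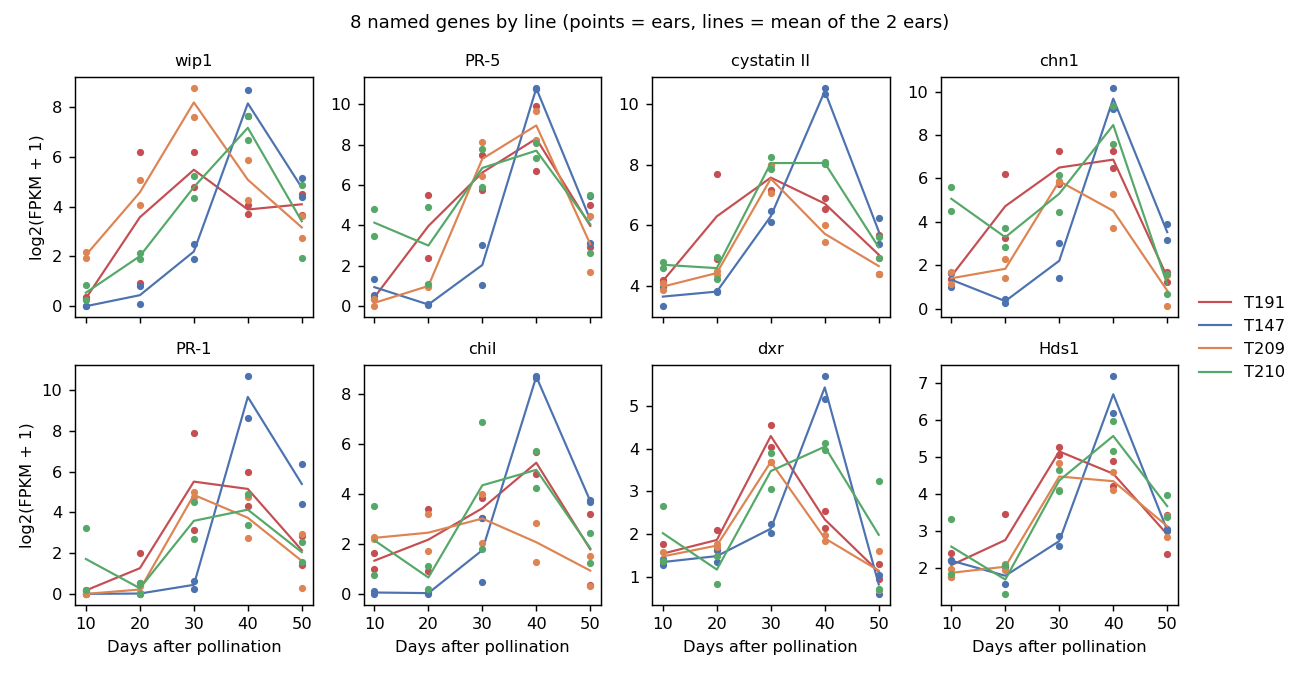
Expression of 8 named genes as log2(FPKM + 1) against DAP, with 1 panel for each gene, points for single ears, and lines for the mean of the 2 ears of T191, T147, T209, and T210. In T147 each gene was highest at 40 DAP, where dxr had 34.7 and 51.3 FPKM and chn1 had 581 and 1144 FPKM.

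Genes of the methylerythritol phosphate (MEP) pathway, which makes isoprenoid precursors in plastids, were also present. They were dxr (GRMZM2G056975), the reductoisomerase that forms methylerythritol phosphate, and Hds1 (GRMZM2G137409), which acts near the end of the pathway. The gene dxr had 22.6 and 15.3 FPKM in T191 at 30 DAP and 3.40 and 4.86 FPKM at 40 DAP, against 3.04 and 3.72 FPKM in T147 at 30 DAP and 34.7 and 51.3 FPKM at 40 DAP. Hds1 had 31.8 and 37.1 FPKM in T191 at 30 DAP and 28.4 and 17.5 FPKM at 40 DAP, against 4.96 and 6.30 FPKM in T147 at 30 DAP and 71.8 and 145 FPKM at 40 DAP. T191 was above T147 at 30 DAP and below it at 40 DAP in every ear for both genes.

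The step differed by -5.26 for dxr (standard error 0.72, limma adjusted p = 4.24e-05) and by -4.57 for Hds1 (standard error 0.69, limma adjusted p = 0.000123). In T209 against T210 the differences were -2.36 for dxr (limma adjusted p = 0.0626) and -1.33 for Hds1 (0.305). Over all rows 3.32% had a lower step in T191 than in T147, and of the 150 genes, to which dxr and Hds1 belong, 57.3% did. Of 5 pathway genes listed after the values were seen, 4 had a lower step in T191 than in T147, with a median of -3.60 over the 5. They included HDR (GRMZM2G027059), the last enzyme of the pathway, at -3.60 (limma adjusted p = 0.000257) and dxs2 (GRMZM2G493395), a form of the first enzyme, at -2.69 (0.0113, but 0.0731 without ear 1 of T147 at 30 DAP, 0.0777 without ear 2 of T147 at 40 DAP, and 0.0568 without ear 2 of T191 at 30 DAP). The step of dxs1 (GRMZM2G137151), another form, differed by 0.10 (0.986). In T209 against T210, 0 of the 5 passed with limma.

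Of genes for redox enzymes, GST39 (GRMZM2G028821), a glutathione S-transferase, had 171 and 103 FPKM in T191 at 30 DAP and 32.3 and 14.2 FPKM at 40 DAP, against 30.3 and 57.5 FPKM in T147 at 30 DAP and 749 and 636 FPKM at 40 DAP. It had 227 and 189 FPKM in T209 at 30 DAP and 11.5 and 2.54 FPKM at 40 DAP, against 42.2 and 39.6 FPKM in T210 at 30 DAP and 69.9 and 76.2 FPKM at 40 DAP. No ears overlapped between the lines of a pair at either time. The steps differed by -6.58 between T191 and T147 (standard error 1.14, limma adjusted p = 0.000587) and by -5.79 between T209 and T210 (limma adjusted p = 0.00407).

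MSRA2 (GRMZM2G022413), a methionine sulfoxide reductase, had 109 and 81.9 FPKM in T191 at 30 DAP and 31.1 and 25.6 FPKM at 40 DAP, against 82.1 and 116 FPKM in T147 at 30 DAP and 578 and 594 FPKM at 40 DAP. The lines overlapped at 30 DAP and were far apart at 40 DAP. Its step differed by -4.29 between T191 and T147 (standard error 0.60, limma adjusted p = 5.45e-05) and by -2.85 between T209 and T210 (limma adjusted p = 0.00733, and 0.0645 without ear 2 of T209 at 40 DAP).

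The laccase gene lac3 (GRMZM2G169033) was higher at 40 DAP than at 30 DAP in both ears of 3 lines, with 14.1 and 20.8 FPKM in T191 and 16.2 and 33.03 FPKM in T147 at 40 DAP, and its step difference of -0.92 did not pass (limma adjusted p = 0.508). The stay-green gene SGR2 (GRMZM2G091837), which acts in chlorophyll breakdown, had 11.6 and 8.22 FPKM in T191 at 40 DAP, against 32.4 and 35.7 FPKM in T147. Its step difference of -1.61 did not pass (limma adjusted p = 0.135). The potassium transporter gene HAK1 (GRMZM2G093826) had 7.36 and 6.88 FPKM in T191 at 40 DAP, against 33.8 and 26.1 FPKM in T147, with a step difference of -1.98 that did not pass (limma adjusted p = 0.0852). Between T209 and T210 the step of HAK1 differed by -2.34 (limma adjusted p = 0.0493), which no longer passed without ear 2 of T209 at 30 DAP (0.168), ear 1 (0.0896) or ear 2 (0.1195) of T209 at 40 DAP, ear 1 of T210 at 30 DAP (0.227), or ear 1 (0.157) or ear 2 (0.0582) of T210 at 40 DAP. The transcription factor gene bZIP9 (GRMZM2G092137), the histidine kinase gene HK1b2 (GRMZM5G833140), and a2 (GRMZM6G474234), the gene for anthocyanidin synthase, had step differences between -1.30 and -0.40 that did not pass either. The step of LAZ1-6 (GRMZM2G071688) differed by -2.96 (limma adjusted p = 0.0112, but 0.0697 without ear 1 of T147 at 40 DAP and 0.0580 without ear 2 of T191 at 30 DAP). Differences of -2.12 for GRF9 (GRMZM2G124566), -1.85 for GRF11 (GRMZM2G067743), and -0.03 for Pep1 (GRMZM5G899080) did not pass.

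The level over 30 and 40 DAP together was compared next. T191 was higher than T147 for 3 of the 150 genes and lower for 22 (limma, adjusted p under 0.05), and over all rows 20.2% differed, 10.0% being higher and 10.1% lower, so that the 16.7% of the genes called was not above the background. The median difference was -0.15. The count of 3 was 1 without ear 2 of T147 at 40 DAP. The count of 22 was 8 without ear 2 of T147 at 30 DAP, 13 without either ear of T147 at 40 DAP, 12 without ear 2 of T191 at 30 DAP, 14 without ear 1 of T191 at 40 DAP, and 10 with a pseudocount of 0.1. At both times the ears of the lines were apart in the called direction for 3 of the 22 lower genes and for 1 of the 3 higher genes, which is 2% and 0.667% of the 150 genes, against 6.55% and 6.45% of all rows. With the 150 genes chosen in T209 and T210 alone, 10 were higher and 15 lower in T191, with a median of -0.03.

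GRMZM2G028104 had 13.3 and 21.4 FPKM in T191 at 30 DAP and 4.72 and 2.11 FPKM at 40 DAP, against 25.7 and 47.8 FPKM in T147 at 30 DAP and 166 and 131 FPKM at 40 DAP. T191 was lower in every ear, and the mean difference was -3.07 (standard error 0.40, limma adjusted p = 6.03e-06). GRMZM2G050450 was lower in T191 by -2.42 (0.000428), and GRMZM2G132577 by -1.25 (0.0299), which no longer passed without ear 2 of T147 at 30 DAP (0.102) or at 40 DAP (0.0952), ear 2 of T191 at 30 DAP (0.133), or ear 1 (0.0779) or ear 2 (0.0567) of T191 at 40 DAP. GRMZM2G376416 was higher, with 34.7 and 96.5 FPKM in T191 at 30 DAP and 38.5 and 35.2 FPKM at 40 DAP, against 15.2 and 12.7 FPKM in T147 at 30 DAP and 14.6 and 9.65 FPKM at 40 DAP. Its difference was 1.77 (limma adjusted p = 0.0154), and 0.0822 without ear 2 of T191 at 30 DAP or 0.0574 without ear 2 of T147 at 40 DAP. The other higher genes, named after their values were seen, were GRMZM2G039009 at 2.19 (limma adjusted p = 0.0129) and GRMZM2G117378 at 1.07 (0.0356), and the ears of T191 and T147 overlapped at 40 DAP in both. The call of GRMZM2G039009 did not pass without ear 1 of T147 at 40 DAP (0.0843) or ear 2 of T191 at 40 DAP (0.0704), and that of GRMZM2G117378 passed only without ear 1 of T191 at 30 DAP or ear 2 of T191 at 40 DAP (0.0501 to 0.1198 without any 1 of the other 6 libraries).

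T209 was higher than T210 over 30 and 40 DAP for 20 of the 150 genes and lower for 27, where 30.3% of all rows differed, 17.2% being higher and 13.1% lower, so that 31.3% of the genes called was close to the background. The count of 20 was 12 without ear 2 of T210 at 40 DAP. Ears were apart at both times for 10 of the higher and 13 of the lower genes, which is 6.67% and 8.67% of the 150 genes, against 11.2% and 9.84% of all rows. Among these were genes that 1 line hardly expressed.

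GRMZM2G306105 had 28.7 and 8.84 FPKM in T209 at 30 DAP and 8.90 and 3.76 FPKM at 40 DAP, against 0.288 and 0.332 FPKM in T210 at 30 DAP and 0.202 and 0.0684 FPKM at 40 DAP. It was the only one of the 150 genes below 1 FPKM in all 4 window libraries of T210. The difference was 3.15 (standard error 0.45, limma adjusted p = 9.41e-06). The reverse held for GRMZM2G093092, which had at most 0.128 FPKM in the 4 window libraries of T209, against 12.1 and 15.1 FPKM in T210 at 30 DAP and 18.2 and 47.1 FPKM at 40 DAP. This gene alone was below 1 FPKM throughout the window of T209, and its difference was -4.35 (standard error 0.28, limma adjusted p = 3.78e-11). In T191 it had 35.3 and 17.6 FPKM at 30 DAP, and in T147 it had 150 and 217 FPKM at 40 DAP.

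GRMZM2G320373 had 35.1 and 32.8 FPKM in T209 at 30 DAP and 61.9 and 50.4 FPKM at 40 DAP, against 292 and 3117 FPKM in T210 at 30 DAP and 694 and 2306 FPKM at 40 DAP. The T210 ears were far apart but all above those of T209, and the difference was -4.63 (standard error 0.77, limma adjusted p = 5.65e-05). Pep1 (GRMZM5G899080) was also lower in T209, with 9.54 and 1.503 FPKM at 30 DAP and 0.562 and 0.338 FPKM at 40 DAP, against 39.8 and 56.9 FPKM in T210 at 30 DAP and 36.4 and 77.7 FPKM at 40 DAP. Higher in T209 were GRMZM2G026910 at 2.71 (limma adjusted p = 0.000333) and GRMZM2G399921 at 2.03 (9.12e-05). For GRMZM2G399921, T210 had at most 1.55 FPKM in its window libraries.

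When T147 and T191 together were compared with T209 and T210, 18 of the 150 genes were higher and 2 lower (limma, adjusted p under 0.05), and 6.19% of all rows differed, 2.86% being higher and 3.34% lower. The count of 18 was 6 with log2 relative depth as a term of the model. Calls over all rows fell as well with this term, from 1239 to 292 rows higher, and 1.93% of all rows differed. None of the 20 genes had all 8 window libraries of T147 and T191 above, or all below, the 8 of T209 and T210. The largest difference, 1.98 (limma adjusted p = 1.17e-05), was that of GRMZM2G399921, whose highest value, 87.1 FPKM, was in ear 2 of T147 at 40 DAP. GRMZM2G169240, GRMZM2G093092, and GRMZM2G169261 followed at 1.65, 1.56, and 1.51, and for these the highest libraries were the T147 ears at 40 DAP, with 693 and 932 FPKM, 150 and 217 FPKM, and 485 and 591 FPKM. The lower genes were GRMZM2G422631 at -0.70 (limma adjusted p = 0.0375) and GRMZM2G178533 at -0.57 (0.0461). Each of these 2 calls was lost in 12 of the 16 analyses that left out 1 library. GRMZM2G422631 passed only without ear 1 of T191 at 30 DAP, ear 1 of T209 at 40 DAP, or ear 2 of T210 at 30 or 40 DAP, and GRMZM2G178533 only without ear 1 of T147 at 40 DAP, ear 1 of T191 at 30 DAP, or ear 1 of T210 at 30 or 40 DAP. Both were also lost with no filter (0.0531 for GRMZM2G422631 and 0.0568 for GRMZM2G178533) and with relative depth as a term (0.264 and 0.177). The genes of this comparison were named after their values were seen.

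The height of the peak, the mean of 30 and 40 DAP minus the mean of the other times on the log2 scale, was lower in T191 than in T147 for 15 of the 150 genes and higher for 0 (limma, adjusted p under 0.05), where 4.42% of all rows differed, 1.14% being higher and 3.29% lower. With unadjusted p-values 41 were lower and 3 higher. The median difference was -0.55, against 0 over all rows. Peak height is close to what the rule selected, and the rule drew on T147 at 40 DAP. Of the 150 genes chosen in T209 and T210 alone, 4 were higher and 11 lower in T191, with a median of -0.28. The count of 15 was 13 without ear 2 of T191 at 20 DAP, the library that stood apart, and 30 without ear 1 of that group. It was 8 without ear 2 of T147 at 30 DAP and 9 without ear 1 of T147 at 40 DAP.

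GRMZM2G028104, whose 30 and 40 DAP values are given above, differed most in peak height, by -3.86 (standard error 0.52, limma adjusted p = 5.80e-05). GRMZM2G353076 had 117 and 41.6 FPKM in T191 at 30 DAP and 8.95 and 10.2 FPKM at 40 DAP, against 54.4 and 93.8 FPKM in T147 at 30 DAP and 298 and 231 FPKM at 40 DAP. It differed by -3.01 (limma adjusted p = 0.00558). GRMZM2G106177 differed by -3.05 (limma adjusted p = 0.0348), but this did not pass without any 1 of the T147 libraries other than ear 1 at 30 DAP and ear 2 at 50 DAP (up to 0.105, without ear 2 at 30 DAP). It did not pass either without T191 ear 2 at 10 DAP (0.0599), 30 DAP (0.0698), or 50 DAP (0.0533), or ear 1 at 40 DAP (0.0879). Of the genes with another name, 3 were lower in peak height, MSRA2 by -1.85 (limma adjusted p = 0.00558), cystatin II by -1.97 (0.0269), and SGR2 (GRMZM2G091837) by -1.48 (0.0328). Of the 20 analyses that left out 1 library, the call of cystatin II was lost in 7 (0.0505 to 0.0695), those without T147 ear 1 at 10, 40, or 50 DAP or ear 2 at 30 or 40 DAP and those without T191 ear 2 at 30 or 40 DAP, and it was also lost with only the pair of lines in the model (0.0827). The call of SGR2 was lost in 12 (0.0514 to 0.0847), and it passed only without T147 ear 2 at 10, 20, or 50 DAP, T191 ear 1 at 10, 20, 30, or 40 DAP, or T191 ear 2 at 50 DAP.

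Between T209 and T210, peak height was higher in T209 for 2 genes and lower for 8, where 4.61% of all rows differed, 2.29% being higher and 2.32% lower. The median difference was -0.09. The 8 lower genes were 2 without ear 2 of T209 at 40 DAP, 3 without ear 2 of T209 at 20 DAP, and 3 without ear 2 of T210 at 30 DAP, and the 2 higher genes were 5 without ear 1 of T210 at 40 DAP. The genes that 1 of these lines hardly expressed were among them, with GRMZM2G093092 at -3.99 (limma adjusted p = 2.74e-07) and GRMZM2G306105 at 3.06 (0.00335). GRMZM2G467893 had 9.62 and 6.25 FPKM in T209 at 30 DAP and 3.70 and 1.85 FPKM at 40 DAP, against 36.8 and 32.6 FPKM in T210 at 30 DAP and 108 and 68.2 FPKM at 40 DAP. T209 was lower in every ear, and the peak differed by -2.41 (limma adjusted p = 0.000121, and 0.0898 with a pseudocount of 0.1). GRMZM5G843216 at 3.24 (limma adjusted p = 0.0288) did not pass without ear 2 of T209 at 20 DAP (0.0510), 30 DAP (0.0834), or 40 DAP (0.111), or ear 2 of T210 at 30 DAP (0.0725) or 40 DAP (0.105). GRMZM2G364528 at -2.03 (0.0235) did not pass without ear 2 of T209 at 30 DAP (0.0774) or 40 DAP (0.0693), or ear 1 of T210 at 30 DAP (0.0588).

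The median difference between the ears of a group was compared with that over the 8667 genes with at least 5 FPKM at 30 and 40 DAP that were not chosen. These were not matched for level within each group. The difference was larger over the 150 genes in 16 of the 20 groups. It was smaller in 4, T191, T147, and T209 at 10 DAP and T147 at 20 DAP. At 30 DAP the median absolute difference between ears on the log2 scale was 0.79 over the 150 genes in T191, 0.40 in T147, 0.75 in T209, and 0.51 in T210, against 0.54, 0.22, 0.49, and 0.28 over the 8667 genes not chosen. At 40 DAP it was 0.43 in T191, 0.38 in T147, 0.62 in T209, and 0.61 in T210, against 0.40, 0.24, 0.39, and 0.30. In 3 genes, GRMZM2G136372, GRMZM2G006853, and PR-1, a single library held 65.3%, 59.9%, and 65.7% of the FPKM summed over 30 and 40 DAP. GRMZM2G136372 had 131 and 806 FPKM in the T147 ears at 40 DAP, and GRMZM2G006853 had 97.4 and 601 FPKM. Of the 150 genes, 39 had at least 1 FPKM in all 40 libraries and 50 were listed at 0 in at least 1.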

How the data were processed

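RNA from kernels of 4 inbred lines at 5 DAP was sequenced by the authors, with 2 ears per group and 40 libraries in all. The authors calculated FPKM from gene length and read counts and deposited 1 table of 65196 rows, of which 35991 carry GRMZM names and 25650 are assembled loci. The submitters' processing notes name Bowtie 0.12.2, Cuffdiff, and the build B73 RefGen_v3. Reads may be divided between overlapping or near-identical rows, and the TruSeq RNA kit is not stated to keep strand. Because read numbers are not known, counting intervals are not given. Relative depth was read from the steps of values below 1 FPKM (777 of 780 pairs of libraries fitted within 0.02 natural log units).

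Values of log2(FPKM + 1) were fitted in R 4.3.3 by limma 3.58.1 (20 group means, empirical Bayes moderation with a trend). Adjustment was by Benjamini-Hochberg over 43394 rows that reached 1 FPKM in 2 or more libraries. This scale understates changes of rows with low FPKM. Tests were two-sided and were tested on simulated data. The p-values measure the spread between ears. Contrasts were 7: 3 of level at 30 and 40 DAP, 2 of peak height, and 2 of the step from 30 to 40 DAP. Alternatives were a pseudocount of 0.1, no filter, a filter of 5 FPKM, libraries rescaled by median ratio, the ear number as a block, only the pair of lines in the model, no trend, relative depth as a term, and leaving out each library.

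The members and lists were chosen with earlier results of these data known. The genes named are the 15 with the highest score, the 3 nearest the threshold on each side, the 3 with the largest difference in each direction per contrast among adjusted p under 0.05 (for levels, only where ears did not overlap), and the 3 lowest and highest ratios of 30 to 40 DAP, beside genes with another RefSeq name. Lists meant for gene descriptions could be applied to names only because the gene table (Zm-B73-REFERENCE-NAM-5.0, used for names and order) has none. Lists of defence proteins and of the MEP pathway were made after the values were seen, as was the choice of genes from the other pair of lines.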

Additional observations from a re-analysis of the deposited data

Results flagged for a closer look

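The results below are differences between lines in a change over DAP, tested as an interaction with limma (adjusted p under 0.05). These counts are not independent of the rule that chose the genes. The step from 30 to 40 DAP differed between T191 and T147 for 86 of the 150 genes (6.17% of all rows). The largest differences were those of GRMZM2G028306 (-10.91 on the log2 scale), GRMZM2G117942 (-10.19), and GRMZM2G117971 (-9.95). Between T209 and T210 the step differed for 32 genes (4.25% of all rows), most for GRMZM2G078667 (-6.05), GRMZM2G422631 (-5.96), and GRMZM2G074781 (-5.91). Peak height differed between T191 and T147 for 15 genes (4.42% of all rows), most for GRMZM2G028104 (-3.86), GRMZM2G106177 (-3.05), and GRMZM2G353076 (-3.01). Between T209 and T210 it differed for 10 genes, which is 6.67% of the 150 genes against 4.61% of all rows. The largest differences were those of GRMZM2G093092 (-3.99), GRMZM5G843216 (3.24), GRMZM2G306105 (3.06), GRMZM2G467893 (-2.41), and GRMZM2G364528 (-2.03). Groups of 2 ears are too small for a check of single outlying libraries.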

How the results depend on the processing

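The step from 30 to 40 DAP kept its direction and its count within 1.5 times of 86 (T191 minus T147, lower) under each alternative setting and without any 1 library (68 to 79), and the count of 32 (T209 minus T210, lower) was 19 to 34 without 1 library. Without 1 library, the level of T191 minus T147 gave 1 to 3 genes higher and 8 to 20 lower, T209 minus T210 gave 12 to 21 higher and 19 to 32 lower, and T147 and T191 minus T209 and T210 gave 13 to 22 higher and 0 to 3 lower. Peak height gave 0 higher and 8 to 30 lower for T191 minus T147, and 1 to 5 higher and 2 to 11 lower for T209 minus T210. With a pseudocount of 0.1 the counts were 10 lower (level, T191 minus T147), 1 lower (T147 and T191 minus T209 and T210), and 1 higher and 5 lower (peak height, T209 minus T210). For T147 and T191 minus T209 and T210, the 2 lower genes were 0 with no filter, 1 with a filter of 5 FPKM, 1 with rescaled libraries, and 0 with relative depth as a term, which also left 6 of 18 higher. In this comparison 1.93% of all rows differed with the depth term, against 6.19% without it. With only the pair of lines in the model, 1 gene was higher in peak height for T209 minus T210. Genes chosen from the other pair of lines gave 10 higher and 15 lower in level, 4 higher and 11 lower in peak height, and 2 higher and 72 lower in step for T191 minus T147, with a choice of genes added after the data were seen. The cause of these shifts was not tested.

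The rule kept 94 of the 150 genes with medians over libraries and 126 to 150 without 1 library. It kept 92 without line T147, 109 without T191, 114 without T209, and 118 without T210. Ears of the same number were not paired: over 190 pairs of groups the deviations had correlations of -0.370 to 0.466 with a median of 0.0136. With the ear number as a replicate block, 87 and 33 genes had a lower step and no count moved by over 1.5 times. Of 65 named results with 513 alternative values, 466 stayed on their side of the threshold, 47 no longer passed, and 0 reversed. Without 1 library, 171 of 708 values no longer passed and 0 reversed.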
